A study of Mus musculus with 2 samples.

Results

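Cathepsins are the proteases of the lysosome, and 10 of their genes are described here across the cells of mouse pancreatic tumours: Ctsa, Ctsb, Ctsc, Ctsd, Ctsh, Ctsk, Ctsl, Ctss, Ctsw and Ctsz. They are 10 of the 32285 genes listed in each count table, taken by symbol, and each symbol had 1 row. The family was picked because Ctsk had one of the lowest knockout-to-control ratios of all genes in macrophages. That difference, and every other difference between the same cells, is therefore given as a description. KPC pancreatic cancer cells had been implanted orthotopically, and the tumours were taken on day 21, dissociated and profiled by droplet-based single-cell RNA-seq from the 3′ end of the transcripts. Control mice were Porcnfl/fl littermates, and knockout mice were Csf1r-Cre;Porcnfl/fl. Both groups thus carried the floxed Porcn alleles, and Cre expression from Csf1r, the receptor for colony stimulating factor 1, was what set them apart. The labels call this knockout macrophage-specific, and Csf1r is also active in other myeloid cells. Porcn encodes the acyltransferase that lets Wnt proteins be secreted, and the study asks what is altered in the tumour when myeloid cells cannot release them. The tumours of 5 mice were pooled into 1 library per group, so the spread between mice was not measured and no test between genotypes was possible. Mouse age and sex are not given in the sources used here.

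Most cathepsins are made as inactive precursors, sorted to the lysosome by mannose 6-phosphate receptors and activated there by the acid pH. Cathepsins B, L, S, K, C, H, Z and W are papain-like cysteine proteases, cathepsin D is an aspartic protease and cathepsin A a serine carboxypeptidase. In tumours they are best known from macrophages, where they digest engulfed protein and can be released to cut collagen and other matrix outside the cell. Cathepsin S also trims the invariant chain of MHC class II, and cathepsin K is the collagen-cutting enzyme of osteoclasts.

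The 2 libraries kept 11516 control and 10467 knockout cells after filtering, with a median of 12167.5 and 10109 unique molecular identifiers (UMIs, 1 per captured transcript) per cell. Clusters were named from marker genes with the ending "-like". The labels call the cells tumour-infiltrating, but epithelial/tumour-like cells were 69.3% of the control cells and 49.2% of the knockout cells. T-like cells were 1.64% and 15.5%, monocyte/macrophage-like cells 4.42% and 5.35% (509 and 560 cells), neutrophil-like cells 2.54% and 1.77%, and fibroblast-like cells 3.53% and 6.84%. Clusters without a clear name held 16.9% and 8.71%. The libraries shared 46 barcodes. The monocyte/macrophage-like class held 8 control and 4 knockout UMIs of Porcn. In CPM, the UMIs per 1000000 UMIs of the class, that was 3.28 (95% Poisson interval 1.42 to 6.46) and 1.41 (0.385 to 3.62). These intervals overlap, and a 3′ count can come from outside a deleted stretch, so Porcn does not check the genotype here.

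Levels are CPM of a class in a library. Differences are log2 ratios of knockout over control with 1 UMI added to each sum. A member counts as lower or higher when the ratio passes 1.5-fold and both libraries together hold at least 20 UMIs. The 95% intervals cover counting error alone, and neither the mice nor the uneven spread of transcripts over cells. Each captured transcript gives 1 UMI at its 3′ end whatever its length, so levels of different genes are set side by side. A class with fewer transcripts of a gene can hold fewer cells that express it or less RNA in each cell, so values per cell are given where the result turns on them.

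**Figure D1:**
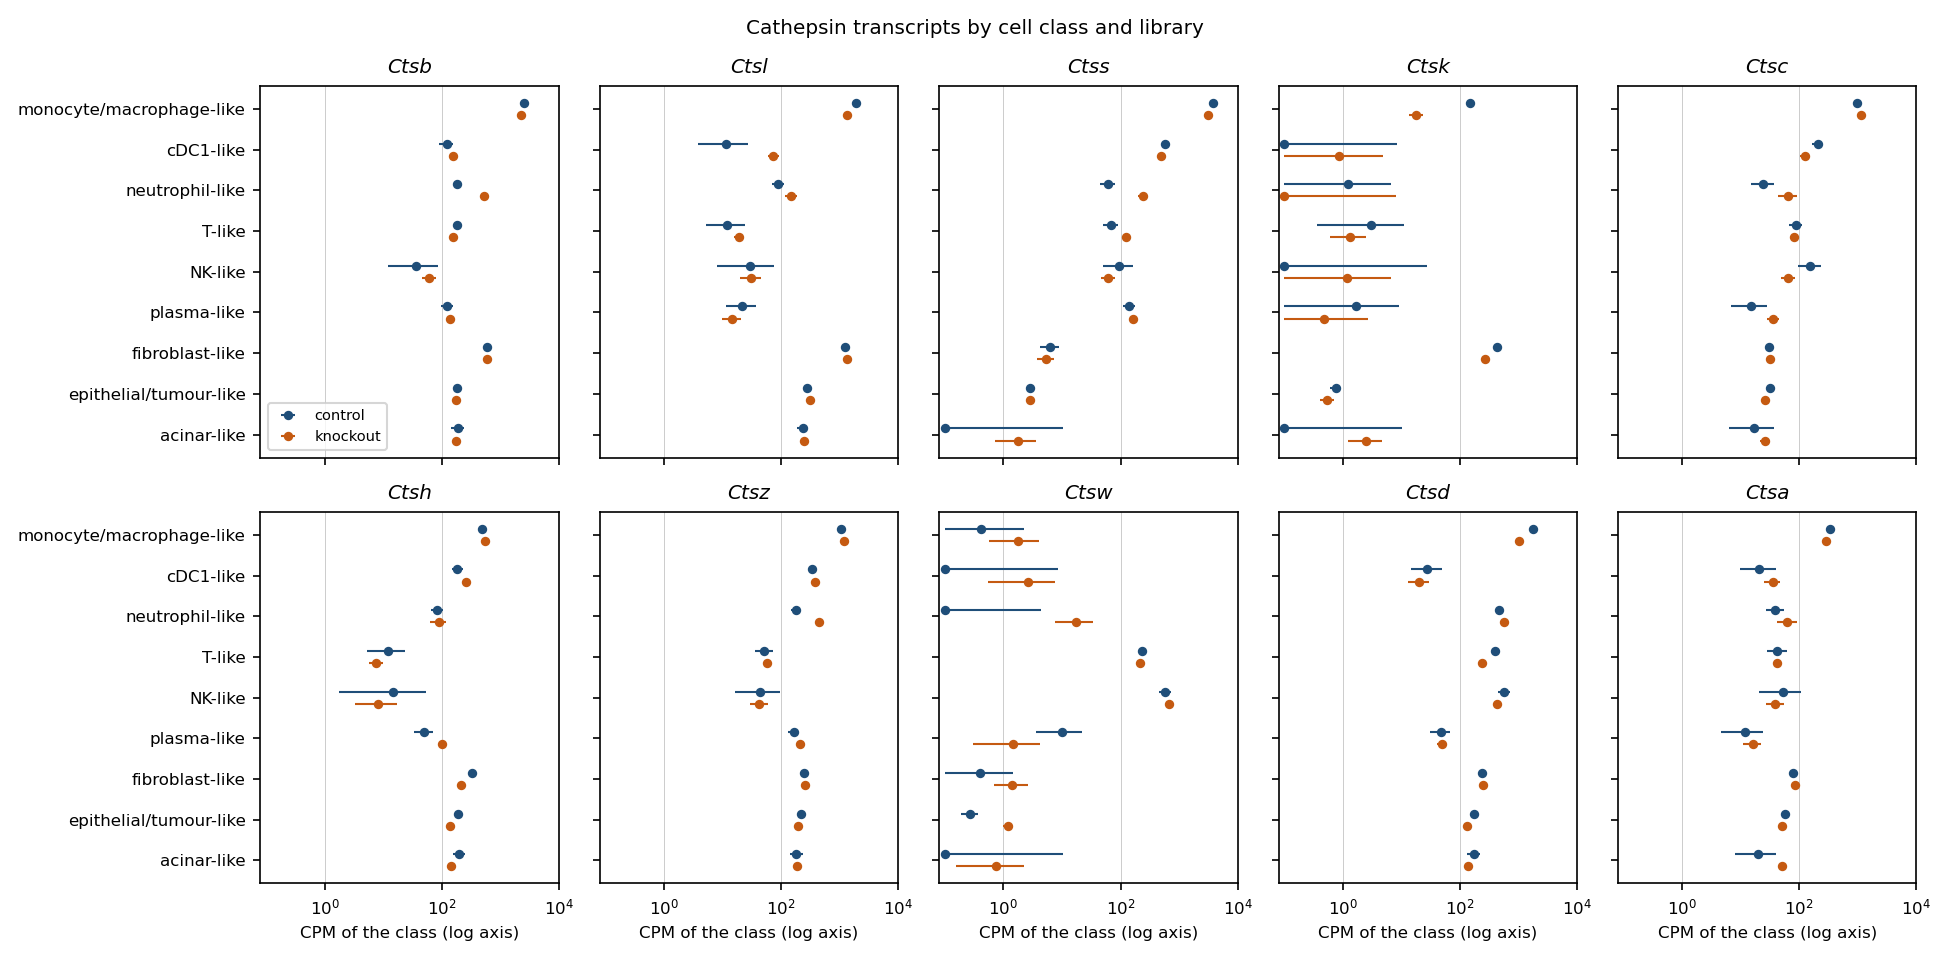
Each panel shows 1 cathepsin gene, the rows are the 9 cell classes with 30 or more cells per library, and the horizontal log axis is CPM of the class. Points are the 2 libraries with 95% Poisson intervals, and a class with 0 UMIs sits at the left edge, where wide intervals are cut off. Ctsk is high in fibroblast-like cells, Ctsw in NK-like and T-like cells, and the other 8 are highest, in CPM, in monocyte/macrophage-like cells.

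Ctsk was lower in the monocyte/macrophage-like cells of the knockout library, and it was carried by few cells. The class held 369 Ctsk UMIs in the control library, or 151 CPM (136 to 167), and 51 UMIs in the knockout library, or 18.0 CPM (13.4 to 23.7). The log2 ratio was -3.04 (-3.52 to -2.64). Among 10236 genes with at least 20 UMIs in the class, this was place 9 from the lowest ratio. Next to it stood Lgals4 (39 and 3 UMIs), Col18a1 (28 and 2 UMIs) and, after it, Lyz1 (84 and 12 UMIs). The first place was held by Tff2 (173 and 5 UMIs), named here for that place after its values were seen. Tff2 and Lgals4 are genes of mucous and gut-type epithelium. The 7 epithelial/tumour markers summed to 463 CPM in the control macrophages, with 2 of them at 0, and 214 CPM in the knockout macrophages, with 0 at 0. Epithelial/tumour-like cells themselves held Ctsk at 0.753 and 0.546 CPM, far below either macrophage value. The part of tumour-cell transcripts in this order was not tested.

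A Ctsk UMI was found in 36 of 509 control macrophages, 7.07% (exact binomial interval 5.00% to 9.66%), and in 21 of 560 knockout macrophages, 3.75% (2.34% to 5.68%). With each cell thinned to 1000 UMIs the shares were 3.03% and 0.91%, with 14 and 12 shallower cells left out. In NK-like cells, which should lack the gene, 0 of 38 control cells had a UMI, which allows a share of up to 7.89%, and 1 of 244 knockout cells did (0.41%). The median depths were 3443 and 3156 UMIs there, against 2873 and 3981 in the macrophages. The gap between the shares of Ctsk-positive macrophages was thus smaller than the gap between the summed counts.

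The summed count rested on single cells. The highest control macrophage held 127 Ctsk UMIs, 34.4% of the class total, and the next 3 held 97, 47 and 24. Those cells were deep, with 19881, 41852, 13000 and 20392 UMIs of all genes. The median depth was 8140.5 UMIs in control macrophages with Ctsk and 2729 in those without it. In knockout macrophages it was 7174 and 3902. The 10 highest cells held 90.0% of the control UMIs and 78.4% of the knockout UMIs. No knockout macrophage held more than 9. At least 5 Ctsk UMIs were found in 7 control cells and 4 knockout cells. Without the highest cell of each library the log2 ratio was -2.72, without the highest 3 it was -2.01 (-2.71 to -1.43) and without the highest 10 it was -1.92. Ctsk then stood in place 14, 48 and 56 from the lowest ratio. With every cell thinned to 1000 UMIs, 25 control and 7 knockout UMIs were left, the log2 ratio was -1.85 and the place was 158. The knockout level was lower under each of these choices, but its size depended on the highest 3 cells per library.

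**Figure D2:**
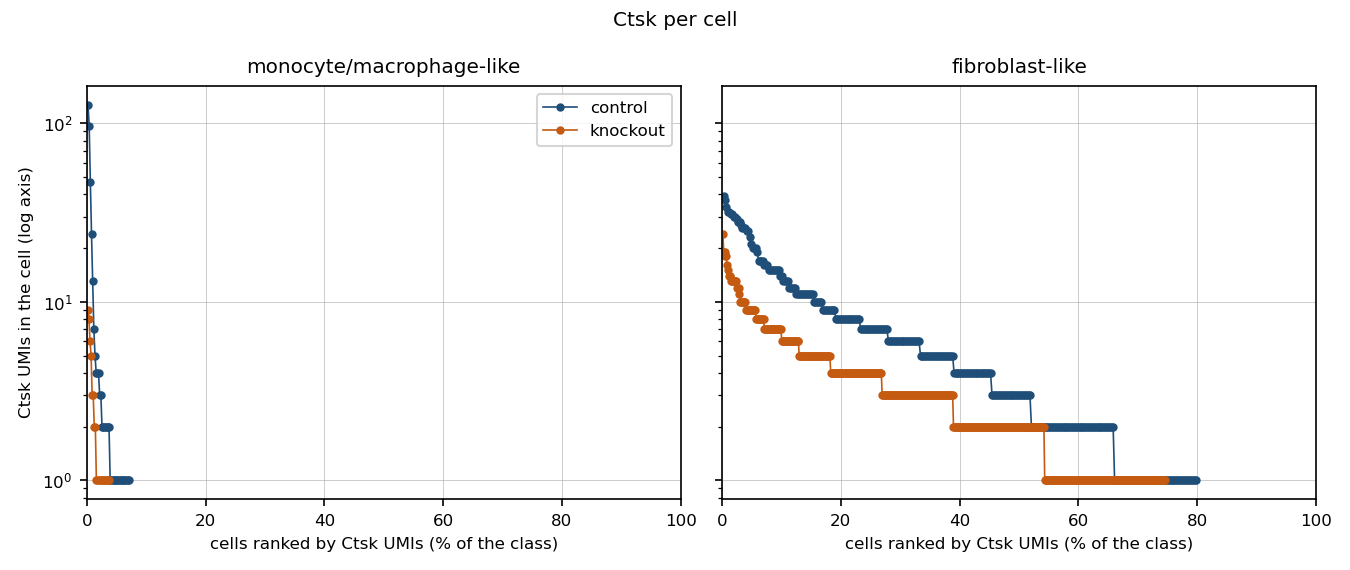
Cells with at least 1 Ctsk UMI are ranked from left to right as a percentage of all cells of the class, and the vertical log axis gives the Ctsk UMIs in the cell. In monocyte/macrophage-like cells the curve ends at 7.07% of control and 3.75% of knockout cells and reaches 127 UMIs in 1 control cell, whereas in fibroblast-like cells it runs to 79.9% and 74.6%.

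Most of the Ctsk UMIs lay in 1 cluster. All 7 control cells and 3 of the 4 knockout cells with at least 5 UMIs were in k0, and the other knockout cell was in k14. Cluster k0, led by Arg1, Chil3, Lyz2 and Mmp12, held 96.5% of the control and 72.5% of the knockout Ctsk UMIs of the class. It made up 30.5% of the control cells of the class (155 cells) and 15.7% of the knockout cells (88 cells). Within k0 Ctsk was at 276 CPM (248 to 306) in control cells against 41.0 CPM (28.9 to 56.5) in knockout cells, a log2 ratio of -2.72. A UMI was found in 17.4% (11.8% to 24.3%) and 14.8% (8.11% to 23.9%) of the k0 cells, and these intervals overlap. The knockout k0 cells were deeper, with a median of 8883.5 UMIs against 5607 in control cells, so these shares are not at like depth. The highest k0 cell held 127 Ctsk UMIs in the control and 9 in the knockout library. Clusters k2, k3 and k14 held 2, 7 and 4 control UMIs and 0, 3 and 11 knockout UMIs. Cluster k14 was led by Lyz2, Fcer1g, Ms4a4c and Arg1, with Ly6c2 further down its leading genes. It was 8.45% of the control and 30.4% of the knockout cells of the class. With the 4 clusters given the same weights in both libraries the log2 ratio of Ctsk was -2.56.

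Fibroblast transcripts were also counted in the macrophages with Ctsk. Over Col1a1, Col1a2, Col3a1, Dcn and Lum, the control cell with 127 Ctsk UMIs held 0 UMIs. The cells with 97 and 47 held 1 and 0. The cell with 24 held 2 UMIs of Col1a1 and 1 of Col3a1, and the cell with 13 held 1 of Col3a1. The cell with 7 held 1 UMI of Col1a1 and 1 of Dcn, and the cell with 5 held 0. The 7 fibroblast markers, none of them at 0 in the class, summed to 181 CPM in control macrophages with Ctsk and 167 CPM in those without it, against 49749.9 CPM in control fibroblast-like cells. When macrophages with at least 2 UMIs over those 5 genes were left out, the log2 ratio was -3.20. The part of fibroblast transcripts in the Ctsk counts was not tested beyond this. The 7 control k0 cells with at least 5 Ctsk UMIs differed in other genes from the other 148 control k0 cells. They had Acp5, the osteoclast acid phosphatase, at 452 against 242 CPM, the membrane protease gene Mmp14 at 378 against 226 CPM, the lysozyme gene Lyz2 at 13985 against 7406 CPM and the arginase gene Arg1 at 477 against 5823 CPM. Atp6v0d2, a proton pump gene of osteoclasts, was at 197 against 208 CPM. In the 3 knockout k0 cells with at least 5 UMIs, against the other 85, Acp5 was at 338 against 245 CPM and Lyz2 at 8023 against 3660.1 CPM, but Mmp14 was at 59.6 against 178 CPM and Arg1 at 3614 against 3512 CPM. The Acp5 levels leaned on 1 cell per library. The control cell with 5 Ctsk UMIs held 27 Acp5 UMIs, against 9, 6 and 7 in those with 127, 97 and 47. The knockout k0 cell with 5 Ctsk UMIs held 12 Acp5 UMIs, against 0 and 5 in those with 9 and 8. The cells were chosen by Ctsk and these levels are a description.

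Ctsk lies next to Ctss on chromosome 3 and the neighbours had different cell patterns, so their promoter windows are shown together. In the GRCm38 annotation Ctsk spans chr3:95499256-95509362 and Ctss chr3:95526786-95556403, both on the plus strand, with 17423 bases and 0 annotated genes between them. Ctsk was highest in fibroblast-like cells. Ctss was at 6.20 and 5.25 CPM there and at 3819.8 and 3082 CPM in monocyte/macrophage-like cells. The RefSeq windows below (GRCm38.p6) run from 250 bases before to 50 bases after the start. Capitals mark GAGGAA, the core bound by the myeloid factor PU.1, on either strand (TTCCTC when read on the other strand). The Ctsd window is shown as well, since Ctsd was the other member past the threshold in macrophages, with capitals for CACGTG, the core of the element bound by TFEB-type factors of lysosomal genes, which reads alike on both strands.
Ctsk, chr3:95498960-95499259, plus strand: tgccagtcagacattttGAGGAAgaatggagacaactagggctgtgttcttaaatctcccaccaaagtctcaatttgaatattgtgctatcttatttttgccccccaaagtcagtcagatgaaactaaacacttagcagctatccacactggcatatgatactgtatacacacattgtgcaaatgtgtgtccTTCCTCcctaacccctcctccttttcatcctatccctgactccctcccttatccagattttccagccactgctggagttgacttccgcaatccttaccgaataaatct
Ctss, chr3:95526536-95526835, plus strand: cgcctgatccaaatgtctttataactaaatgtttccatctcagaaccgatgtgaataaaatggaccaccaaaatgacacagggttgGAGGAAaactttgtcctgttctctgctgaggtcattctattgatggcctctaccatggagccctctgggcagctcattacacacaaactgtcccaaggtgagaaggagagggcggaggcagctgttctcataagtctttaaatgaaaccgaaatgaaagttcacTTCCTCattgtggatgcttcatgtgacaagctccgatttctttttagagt
Ctsd, chr7:142387778-142388077, minus strand: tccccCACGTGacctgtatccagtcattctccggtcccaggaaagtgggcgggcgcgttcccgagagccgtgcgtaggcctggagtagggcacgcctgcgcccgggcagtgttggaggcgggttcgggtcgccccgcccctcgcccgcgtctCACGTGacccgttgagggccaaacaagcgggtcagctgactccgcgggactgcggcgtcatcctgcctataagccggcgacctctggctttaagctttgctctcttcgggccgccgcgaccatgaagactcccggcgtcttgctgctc
Ctsk and Ctss each had 2 GAGGAA matches and no CACGTG, and Ctsd had 2 CACGTG matches and no GAGGAA. Windows were at hand for 7 members, 8 windows in all. GAGGAA was in those of Ctsc, Ctsk and Ctss, and in 28.3% of all 32851 windows of that length. CACGTG was in those of Ctsd and Ctsl and in the Ctsa window at chr2:164833523-164833822, but not in the other Ctsa window. It was in 7.15% of all windows. The AP-1 element TGANTCA was in none of the 8, and in 7.81% of all. These are matches of letters, not measured binding.

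In fibroblast-like cells Ctsk was a broad transcript, and it was lower in the knockout library there too. The class held 2180 control UMIs, or 436 CPM (418 to 455), and 1902 knockout UMIs, or 270.1 CPM (258 to 282), a log2 ratio of -0.69 (-0.78 to -0.60). A UMI was found in 79.9% and 74.6% of the cells, and in 28.1% and 20.3% after thinning. The 10 highest cells held 14.9% and 8.99% of the UMIs, and without them the log2 ratio was -0.61. At least 5 Ctsk UMIs were found in 38.8% of control and 18.2% of knockout fibroblast-like cells. Fibroblast-like cells held 72.0% of all control Ctsk UMIs and 92.2% of all knockout ones, and macrophages 12.2% and 2.47%. Over all kept cells Ctsk was at 17.9 and 16.0 CPM, while fibroblast-like cells were the larger share of the knockout library. The median depth of the class was 10239 and 9127.5 UMIs.

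The fibroblast-like cells were clustered again, after the values had been seen, into 8 clusters. Cluster f0 held 110 control cells and 0 knockout cells, with Ctsk at 620 CPM (581 to 660), and it carried 43.5% of the control Ctsk UMIs of the class. It was led by Akr1c18, Prg4, Apod, Ccl8 and Ccl7. A cluster of 1 library cannot be told apart from that library. In f1, f2, f3, f5 and f6 the knockout level was lower, with log2 ratios from -0.87 in f6 to -0.31 in f5, although f6 was led by epithelial genes such as Lgals2 and Krt18. In f4 the levels were 239 and 244 CPM, and f7 had 2 control cells. Without f0 the log2 ratio of the class was -0.40. A further cluster, g11, was led by Saa3, Col1a1, Dcn and Slpi, scored for fibroblast and mesothelial markers alike and had no name. It had 263 control and 47 knockout cells, with Ctsk at 65.2 and 48.6 CPM. At Leiden resolution 0.5 g11 joined the fibroblast-like class, and the log2 ratio of Ctsk in the class was then 0.047. The lower Ctsk in the fibroblast-like class was thus seen with g11 kept apart and not with g11 in the class, while in g11 and in the named class taken alone the knockout value was the lower one.

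**Figure D3:**
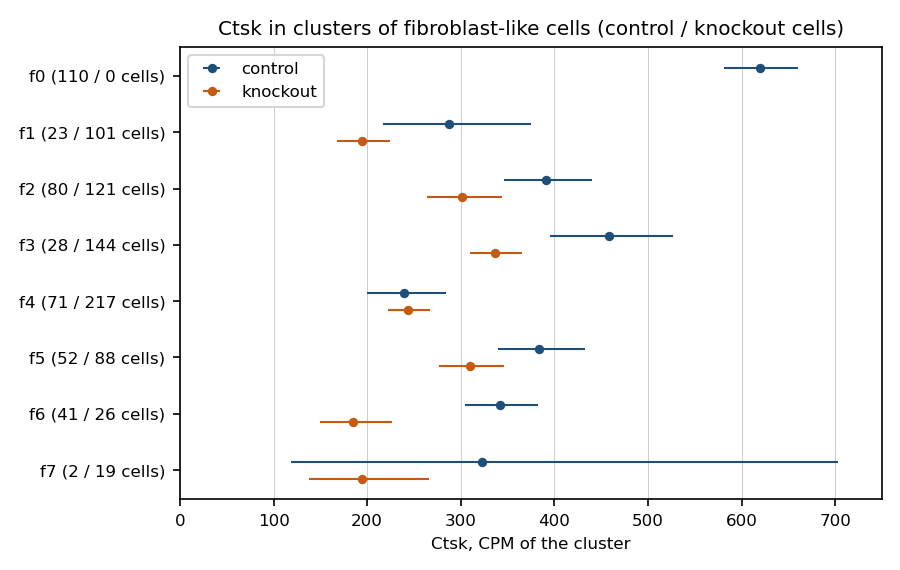
Rows are the 8 clusters of fibroblast-like cells with their control and knockout cell numbers, and the horizontal axis is Ctsk in CPM of the cluster with 95% Poisson intervals. Cluster f0, with control cells alone, has the highest level at 620 CPM, and f4 has like levels in both libraries (239 and 244 CPM).

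In the other named classes Ctsk was low. It had between 0 and 10 UMIs per library in NK-like, T-like, acinar-like, cDC1-like, neutrophil-like and plasma-like cells. Unnamed clusters held 12.4% of all control and 1.60% of all knockout Ctsk UMIs, mostly in g11. Unnamed cluster g15, led by Rgs5, Fabp4 and Sparcl1, had Ctsk at 27.9 and 32.9 CPM on 29 and 9 UMIs. The genes with profiles most like that of Ctsk, over 18 profiles of 9 classes in 2 libraries, were Ccn3 (Pearson r 0.98), Vsig8 (0.97) and Colec12 (0.97) out of 16095 genes. These profiles share libraries and depth, and r is a description.

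Across the 9 members with at least 20 UMIs, 2 were lower in knockout macrophages, Ctsk and Ctsd, where 10.6% of all genes were lower by as much. None of the 9 was higher, where 7.98% of all genes were. At 2-fold only Ctsk was lower, against 3.70% of genes, and none was higher, against 2.85%. The median log2 ratio of the 9 was -0.20, and that of all genes -0.025. Ctsd at -0.81 was the member just past the 1.5-fold line and Ctsl at -0.52 the one just short of it. Since the family was chosen on this contrast, nothing is read from these counts.

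Ctsd, the aspartic protease of the lysosome, had 1764 CPM (1712 to 1818) among control macrophages and 1003 CPM (966 to 1041) among knockout ones, a log2 ratio of -0.81 (-0.88 to -0.75). It differed most in cluster k0, with 2646 and 1690.3 CPM (log2 ratio -0.65), and little in k3 (1033 and 895 CPM), k2 (428 and 411 CPM) and k14 (521 and 524 CPM). With the clusters weighted alike the log2 ratio was -0.49 and no longer passed 1.5-fold, which left Ctsk as the 1 member that did. In single cells Ctsd reached 390 UMIs, and the 10 highest cells held 36.3% of control and 26.7% of knockout UMIs. A UMI was found in 69.4% and 67.0% of the cells.

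Ctsl, a cysteine endopeptidase, stood at 1931 CPM (1876 to 1987) and 1347 CPM (1305 to 1391), a log2 ratio of -0.52. In k0, where it was highest, the levels were 3100.2 and 3094 CPM (log2 ratio -0.0029). In k3, led by C1qa, C1qb and C1qc, they were 760.2 and 496 CPM (log2 ratio -0.62). With the clusters weighted alike the class ratio was -0.066. The share of k0 cells was smaller in the knockout library. Equal weights level the cluster shares and keep the level within each cluster, including the lower one in k3.

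Ctss was the most abundant member in macrophages, at 3819.8 CPM (3743 to 3898) and 3082 CPM (3018 to 3148), a log2 ratio of -0.31. In k0 it was at 4759.7 and 3455 CPM (log2 ratio -0.46), in k3 at 3579 and 3374 CPM and in k14 at 2707 and 3012 CPM. A UMI was found in 88.2% and 87.7% of the cells. After thinning the log2 ratio of the class was -0.08. Ctsb, which cuts proteins inside and at their carboxyl end, was at 2499.6 and 2281 CPM (log2 ratio -0.13), and in k14 it was higher, at 1757 and 2175 CPM.

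Ctsc, Ctsz and Ctsh were slightly higher in the knockout macrophages, and none passed 1.5-fold. Ctsc, whose product activates granule serine proteases, was at 972 and 1122 CPM (log2 ratio 0.21, interval 0.13 to 0.28). Ctsz, a carboxypeptidase gene, was at 1033 and 1172 CPM (0.18, interval 0.11 to 0.26), and in k0 at 1349.9 and 1756 CPM (0.38). Ctsh, an aminopeptidase gene, was at 490.1 and 545 CPM (0.15, interval 0.04 to 0.26), and in k3 at 467 and 670.4 CPM (0.52). The protective carboxypeptidase gene Ctsa was at 332 and 288 CPM (-0.20). Ctsw had 1 and 5 UMIs in the class, where 9 T-cell markers summed to 12.3 and 71.0 CPM, and their part in it was not tested.

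**Figure D4:**
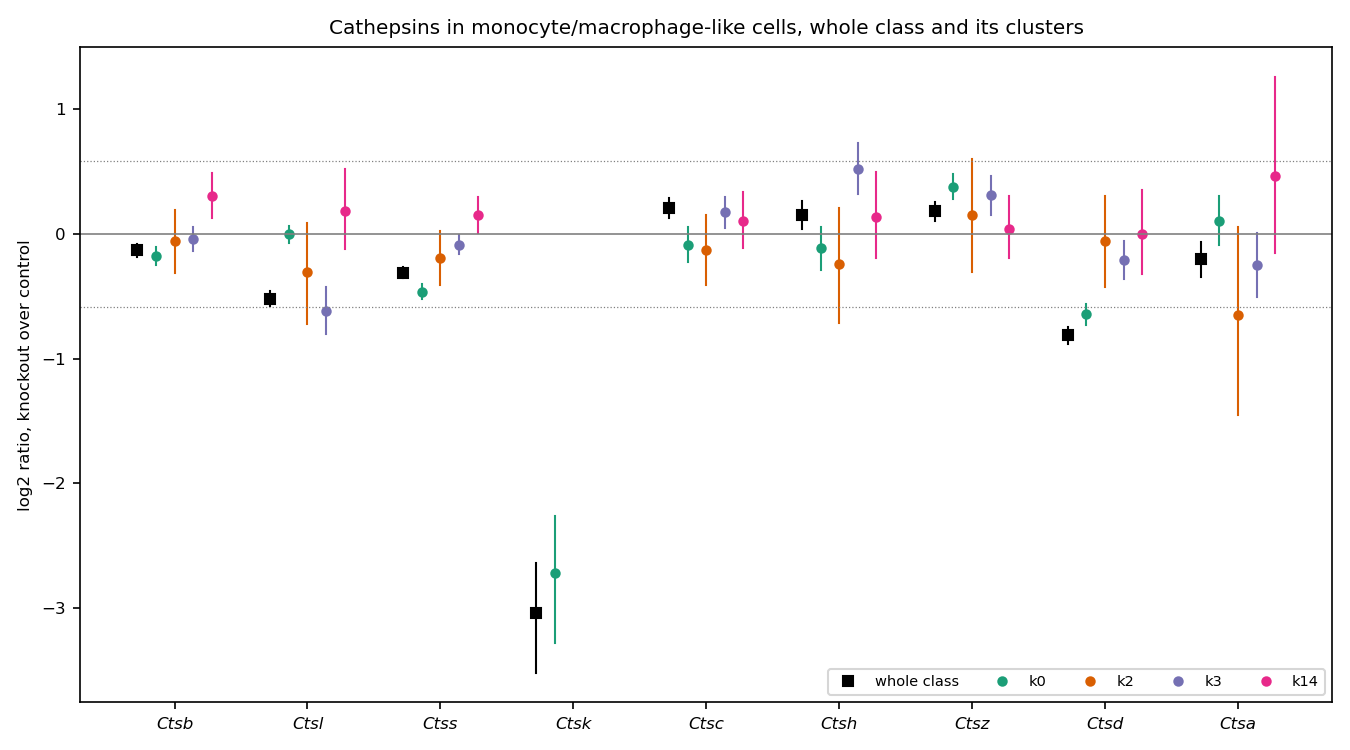
The vertical axis is the log2 ratio of knockout over control for 9 cathepsins in all monocyte/macrophage-like cells (squares) and in clusters k0, k2, k3 and k14 (circles), with exact conditional 95% intervals, for sums of at least 20 UMIs, and dotted lines mark 1.5-fold. Ctsk lies at -3.04 for the class and -2.72 in k0, and Ctsd is lower mainly in k0.

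Neutrophil-like cells of the knockout library had higher levels of several cathepsins, some of them on few cells. Of 8 members with at least 20 UMIs, 6 were higher, Ctsa, Ctsb, Ctsc, Ctsl, Ctss and Ctsz, where 16.8% of all genes were. None was lower, where 18.7% of all genes were. Ctsb stood at 182 CPM (154 to 213) and 535 CPM (470 to 606), a log2 ratio of 1.55 (1.26 to 1.86). Ctss stood at 60.6 CPM (45.0 to 79.8) and 238 CPM (196 to 287), a log2 ratio of 1.96 (1.48 to 2.49). Ctsz stood at 177 CPM (149 to 208) and 448 CPM (389 to 514), a log2 ratio of 1.34 (1.03 to 1.66). A Ctsb UMI was found in 30.7% of 293 control cells and 50.3% of 185 knockout cells, and after thinning in 17.6% and 39.9%. The cells were shallow, with a median of 1709 and 1874 UMIs, and Ctsa, Ctsc, Ctsh and Ctsl rested on 20 to 74 UMIs per library. Ctsc was at 24.2 and 65.0 CPM, and Ctsl at 89.6 and 149 CPM. A Ctsc UMI was found in 12 control and 13 knockout cells, and the 10 highest held 90.0% in each library. For Ctss the 10 highest cells held 46.0% of control and 51.8% of knockout UMIs. Over the other settings run, between 4 and 7 members were higher. Ctsa was the least stable of the 6, with 32 and 29 UMIs and a log2 ratio of 0.70 (-0.08 to 1.47), which was -0.015 as a mean over cells and -0.75 after thinning. Ctsd was at 464 and 574 CPM (log2 ratio 0.31), and Ctsh at 83.6 and 88.8 CPM.

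The make-up of the class moved as well, in the kinds of neutrophil-like cells present. Cluster k17, led by Cxcl2, Il1b, Acod1 and Ccl4, was 46.4% of the control and 76.8% of the knockout cells of the class. Cluster k5, led by S100a9, S100a8 and Retnlg, was 35.2% and 17.3%, and k10, led by the granule genes Camp, Ngp and Ltf, was 18.4% and 5.95%. Within k17 Ctsb was at 418 and 754 CPM (log2 ratio 0.84), Ctss at 161 and 323 CPM (0.98) and Ctsz at 364 and 628 CPM (0.78). In k5 Ctsb was at 136 and 288 CPM (1.10, interval 0.11 to 2.02), while Ctss had 10 and 5 UMIs and Ctsz was at 148 and 144 CPM. The 11 knockout cells of k10 held 7 Ctsb, 10 Ctss and 13 Ctsz UMIs, against 25, 1 and 32 in 54 control cells. With the clusters weighted alike the class ratios were 0.82, 1.20 and 0.70. The 11 macrophage markers summed to 625 and 483 CPM in the class, with 1 of them, Ccr2, at 0 in the control library, and to 252 and 465 CPM in k17, with 6 at 0 in its control cells and 0 at 0 in its knockout cells. The macrophage class itself held 7879 and 9468 CPM. The C1q genes alone summed to 4.85 and 88.8 CPM in the class and, in k17, to 0 and 40 UMIs. All 6 MHC class II processing genes with at least 20 UMIs were higher in knockout neutrophil-like cells (median log2 ratio 2.63), with Cd74 at 107 and 617 CPM, and all 5 granule serine protease genes were lower (median -3.20), with Prtn3 at 481 and 162 CPM. The part of these in the cathepsin values was not tested beyond the next comparison. With cells that held any C1qa, C1qb or C1qc UMI left out, 5 members were higher, and Ctsb, Ctss and Ctsz stood at log2 ratios of 1.51, 1.60 and 1.26. The 8 neutrophil markers, which named the class, summed to 158078 and 77484 CPM. Their part in the CPM of other genes was not tested.

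**Figure D5:**
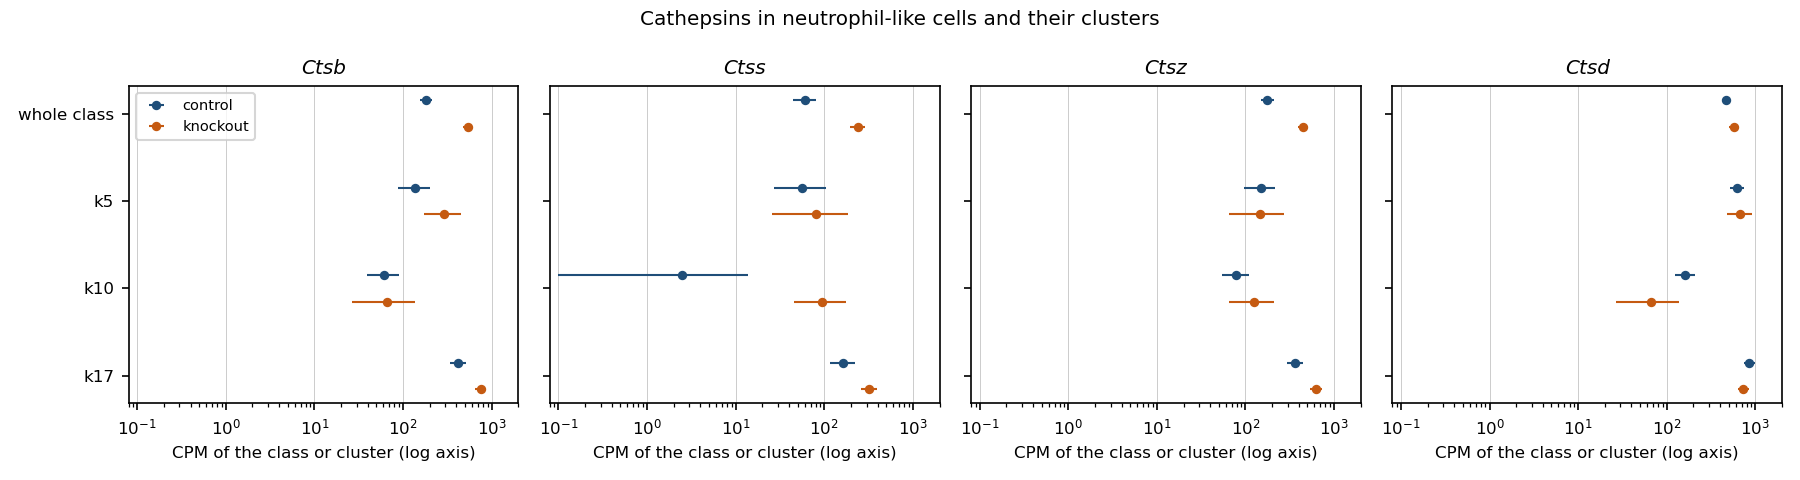
Panels show Ctsb, Ctss, Ctsz and Ctsd in all neutrophil-like cells and in clusters k5, k10 and k17, as CPM on a log axis with 95% Poisson intervals for each library. Ctsb, Ctss and Ctsz are higher in the knockout cells of k17, and Ctsd is not (856 and 734 CPM).

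Ctsw was the most abundant member in NK-like cells and came after Ctsd in T-like cells. Its product is a papain-type protease of cytotoxic lymphocytes. NK-like cells held it at 576 CPM (456 to 719) and 667 CPM (613 to 724), with a UMI in 68.4% and 77.0% of the cells. T-like cells held it at 231 and 215 CPM. Within the T-like class, k15, led by Nkg7, Ccl5 and Gzmb, had Ctsw at 259 and 349 CPM, and k12, led by Cd3g, Trbc2 and Tox, had 251 and 163 CPM. Neither class passed 1.5-fold. Over all kept cells Ctsw was at 1.83 and 17.0 CPM, beside the T-like share of 1.64% and 15.5%. Epithelial/tumour-like cells held 35 and 113 Ctsw UMIs, or 0.266 and 1.21 CPM, which made Ctsw the 1 member of 10 past 1.5-fold in that class, where 10.0% of genes were higher and 5.73% lower. This too stands beside the larger T-like share, and its part was not tested. The 3 genes with profiles most like Ctsw were Klre1, Il2rb and Klrc2, each at r 0.99.

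T-like cells had 2 of 9 members lower, where 16.5% of genes were, and 1 higher, where 10.0% were. Ctsd was at 402 and 238 CPM (log2 ratio -0.76, interval -0.95 to -0.57), and in k15 at 591 and 413 CPM. Ctsh was at 12.1 and 7.68 CPM on 8 and 52 UMIs, with an interval of the log2 ratio from -1.74 to 0.63. Ctss was at 68.0 and 126 CPM (0.86, interval 0.46 to 1.36), and in k12 and k15 at 66.1 and 140.3 CPM and at 66.3 and 106 CPM. NK-like cells had Ctsc and Ctss lower of 8 members, where 16.7% of genes were, and none higher, where 14.6% were. Ctsc was at 155 and 64.0 CPM on 21 and 54 UMIs, and Ctss at 96.0 and 61.6 CPM on 13 and 52. The interval of the log2 ratio ran from -2.03 to -0.48 for Ctsc and from -1.54 to 0.36 for Ctss. These classes were small in the control library (189 and 38 cells).

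In cDC1-like cells 1 of 8 members was lower, where 12.5% of genes were, and 2 were higher, where 11.2% were. Ctsc was at 209 and 124 CPM. Ctsl had 5 control and 84 knockout UMIs, or 11.6 and 73.5 CPM, but 26 of the 84 lay in 1 cell and the 10 highest cells held 92.9%. Ctsa had 9 and 40 UMIs, or 20.9 and 35.0 CPM, with an interval of the log2 ratio from -0.32 to 1.97. Ctss was at 582 and 497 CPM, next after macrophages among the 9 classes compared. Of 8 members, plasma-like cells had Ctsl lower, where 12.1% of genes were, and Ctsc and Ctsh higher, where 14.8% were. Ctsh had 30 and 205 UMIs (log2 ratio 0.95, interval 0.44 to 1.60), and Ctsc had 9 and 73 UMIs (1.11, interval 0.24 to 2.43). Ctsl, on 13 and 30 UMIs, had a log2 ratio of -0.63 that was 0.042 with a looser cell filter, and the ratio of Ctsc was -0.019 after thinning. Acinar-like cells had 0 of 7 members lower, where 22.1% of genes were, and Ctsa higher, where 8.49% were, on 7 control UMIs. The median log2 ratio of all genes in that class was -0.19.

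In fibroblast-like cells Ctsk and Ctsh were the 2 of 9 members that were lower, where 7.19% of genes were, and none was higher, where 13.2% were. Ctsh was at 330.0 CPM (314 to 346) and 214 CPM (203 to 225), a log2 ratio of -0.63, which was 0.014 at Leiden resolution 0.5, where g11 joined. Cluster f0, with control cells alone, held 609 of the 1649 control Ctsh UMIs of the class, at 398 CPM. The class ratio of Ctsh without f0 is not given. Of the clusters with cells of both libraries, Ctsh was lower in f5 (378 and 188 CPM), f6 (279 and 144 CPM), f2 (426 and 341 CPM) and f1 (225 and 166 CPM). It was higher in f4 (220.5 and 280.1 CPM) and f3 (145 and 157 CPM). Ctsl was the most abundant member of fibroblast-like cells, at 1212 and 1327 CPM, and Ctsb followed at 585 and 593 CPM. Per cell, fibroblast-like cells of the control library held 14.9 Ctsl UMIs against 9.26 in macrophages, the reverse of the order in CPM. In the knockout library the log2 ratio of Ctsl UMIs per cell, macrophages over fibroblast-like cells, was -0.94. For Ctsh it was -0.79 in the control and 0.39 in the knockout library. In epithelial/tumour-like cells Ctsl was also the most abundant, at 276 and 310 CPM. Ctsh was at 192 and 139.9 CPM there (log2 ratio -0.46), and Ctsd at 174 and 133 CPM (-0.39).

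Genes that act with the cathepsins were looked at in macrophages by lists, named by the size of their log2 ratio. As above, 10.6% of all genes in the class were lower by 1.5-fold and 7.98% higher, and nothing particular to a list is read from its count. Of 6 cathepsin inhibitor genes with at least 20 UMIs, out of 13 in the files, 3 were lower and 1 was higher. Serpinb6a, which codes for a serpin, was at 161 and 95.8 CPM (log2 ratio -0.74). Serpinb6b had 28 and 9 UMIs, and Cstdc4 16 and 5 UMIs. Cst7, which codes for cystatin F, an inhibitor of cathepsin C, had 10 and 33 UMIs. Of 10 sorting genes and factors of lysosome genes 4 were lower and none higher. They were Igf2r, a mannose 6-phosphate receptor gene (38.5 and 20.1 CPM, log2 ratio -0.93), Tfec (82.4 and 51.95 CPM), Sort1 (16 and 9 UMIs) and Gnptg (32 and 23 UMIs). The interval of the log2 ratio ran from -2.40 to 0.22 for Sort1 and from -1.53 to 0.13 for Gnptg. Of 8 genes known from osteoclasts, the proton pump gene Atp6v0d2 was lower (123 and 73.9 CPM), though within k0, which held most of it, it was at 207 and 197 CPM. In the same list, Ckb was higher (50.4 and 80.2 CPM). Dcstamp was at 37.3 and 28.3 CPM.

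The other lists in macrophages stand beside the same shares, 10.6% of all genes lower and 7.98% higher, and nothing is read from their counts. None of 7 further lysosomal proteases and none of 11 membrane and cofactor genes passed 1.5-fold, with medians of -0.09 and -0.16. Of 15 hydrolase genes, Arsb was higher (17.6 and 36.4 CPM) and none was lower. Legumain, Lgmn, which processes cathepsins, was at 863 and 778 CPM. Of 10 genes of MHC class II processing, the partner pathway of Ctss, H2-Oa was higher on 4 and 17 UMIs, and the median was 0.31. The invariant chain gene Cd74 was at 6911 and 9105 CPM (log2 ratio 0.40), while Ctss was at -0.31. B-cell markers summed to 13.1 and 52.7 CPM in the same macrophages, and their part in the class II genes was not tested. Of 13 cathepsin genes that are not members, Ctse, Ctsf, Ctsg and Ctso were detected and the 9 others had 0 or 1 UMIs. Ctsf was highest in fibroblast-like cells (43.2 and 53.5 CPM), and Ctsg in neutrophil-like cells (124 and 15.2 CPM), beside the smaller share of k10 in the knockout library.

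Among the members themselves, the profiles over the 18 class sums were most alike for Ctsh and Ctsz (r 0.90), Ctsc and Ctss (0.85) and Ctsa and Ctsb (0.82), and most unlike for Ctsh and Ctsw (-0.88). Outside the family, Ctsc was most like the monocyte genes Ms4a4c and Ms4a6c (both r 0.96), Ctsl like Selenbp1 (0.96) and Ctsd like Ikbke (0.94). Ctsz was most like Hpse and Ftl1 (both 0.92), Ctss like Evi2a (0.91) and Ctsh like the progranulin gene Grn (0.90). In the GRCm38 annotation the other genes lie at chr2:164832873-164841032 (Ctsa), chr14:63122462-63145923 (Ctsb), chr7:88278085-88310888 (Ctsc), chr7:142375911-142388038 (Ctsd), chr9:90054152-90076089 (Ctsh), chr13:64359337-64370890 (Ctsl), chr19:5465043-5468507 (Ctsw) and chr2:174427493-174439039 (Ctsz). Ctsd, Ctsl, Ctsw and Ctsz are on the minus strand.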

How the data were processed

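Libraries of 2 pools of tumours were analysed, 1 per genotype. Per the file headers, the deposited tables are UMI counts per gene and barcode written by Cell Ranger 8.0.0, whereas the submitters' processing notes name Cell Ranger 3.1.3 and mm10. The control table held 13766 barcodes and 173934025 UMIs, the one for the knockout held 12251 barcodes and 137527647 UMIs. Cells needed 500 detected genes and no more than 15% of UMIs from mitochondrial genes, and Scrublet (scanpy 1.11.5, expected rate 0.08) removed 148 and 341 doublets. Cells were clustered on 2000 variable genes without the 10 members (30 components, 15 neighbours, Leiden resolution 1, seed 0, no correction between libraries). Clusters with Ptprc in at least 30% of cells were clustered again.

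Clusters were named from marker lists of 20 classes, by a scoring rule set after the clusters were seen, with at least 3 detected markers. Clusters with mixed markers stayed unnamed. The members, the lists and the alternatives were chosen with earlier results of these data known. All 10 members were described in classes of at least 30 cells per library (9 classes), lists in classes of at least 100 (5 classes), with up to 4 genes per list by size of the log2 ratio in macrophages, the genes beside Ctsk in the order of ratios and the 3 likest genes per member (log2 of CPM plus 10). Intervals are exact (Poisson, binomial or conditional) with scipy 1.17.1. The interval of a count of 0 allowed 3 counts. The ratio code was tested on simulated counts. Alternatives were a stricter and a looser cell filter, doublets kept, Leiden resolution 0.5, members among the variable genes, means over cells, thinning, centring on all genes, equal cluster weights, a 2-fold line and the left-out cells named in the text. Gene positions come from GENCODE M21 on GRCm38, and promoter windows from RefSeq. Protein sequences were not used here.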

Additional observations from a re-analysis of the deposited data

How the results depend on the processing

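No paired analysis was possible because each group was 1 pooled library. The log2 ratio of Ctsk in monocyte/macrophage-like cells was -2.64 with a stricter filter (1000 genes, 10% mitochondrial), -2.29 as a mean over cells, -1.85 after thinning, -2.56 with clusters weighted alike, and -2.01 and -1.92 without the highest 3 and 10 cells per library. It stayed between -3.20 and -2.72 in the other settings run. Members lower in that class numbered from 1 to 3 over these settings, with 1 when clusters were weighted alike and at 2-fold. The lowest log2 ratio of Ctsl there was -0.66, which passed 1.5-fold. Members higher numbered 1, Ctsw, when doublets were kept. Ctsk in fibroblast-like cells was -0.53 with the stricter filter, -0.40 without cluster f0 and 0.047 at Leiden resolution 0.5, the alternative that put g11 into the class and turned Ctsh there to 0.014. A value is said to turn when it passed 1.5-fold under the first settings and then changed sign. Other such values were Ctsa in neutrophil-like cells (-0.015 as a mean over cells, -0.75 thinned) and Ctsc (-0.019 thinned) in plasma-like cells. Ctsl turned in plasma-like cells (0.042, looser filter) and, per cell, in control macrophages over fibroblasts (-0.68). Smaller values changed sign too and are not counted as turned, such as Ctsd in neutrophil-like cells (0.31, down to -0.37). The cause of these changes was not tested beyond the cells or genes each setting adds or leaves out. The next count leaves out Ctsk in monocyte/macrophage-like and in fibroblast-like cells, and so also its turn to 0.047. Of the 661 other values of single members under other settings, 530 stayed within the counting interval, 125 moved beyond it and 6 turned. The settings that left out the highest cells, f0 or cells with C1q were added after seeing the data. With 1 library per group, depth sets the counting intervals and the spread between mice is unknown.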
